A study of Mus musculus with 48 samples.

Results

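Gonadotropin-releasing hormone (GnRH) neurons of mice exposed to dihydrotestosterone (DHT) before birth were examined for transcripts whose enrichment over the surrounding tissue changed between youth and adulthood. The measure was a fraction by stage interaction. For each gene, the log2 difference between immunoprecipitate and supernatant was taken in each adult pair and in each young pair, and the young value was subtracted from the adult value. A negative interaction ("lower") means that the transcript stood less high in the immunoprecipitate, relative to its own supernatant, in adults than in young mice. The comparison used 24 of the 48 libraries of the series, chosen by labelled fraction, age and prenatal treatment. The test covered 16007 genes.

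The libraries were made from polyadenylated RNA of preoptic area punches of female mice of the genotype GnRH CRE x Floxed L10a-GFP, in which Cre recombinase allows a green fluorescent ribosomal protein, L10a, to be made in GnRH neurons. The immunoprecipitate (IP) holds RNA pulled down with the tagged ribosomes, and the GnRH-depleted supernatant is what remained. All 24 libraries came from mice carrying both transgenes and exposed prenatally to DHT, an androgen that is not converted to estradiol. They form 4 groups of 6: young IP, young supernatant, adult IP and adult supernatant. The young mice were prepubertal and the adults were in diestrus. IP and supernatant with the same replicate number were treated as 1 pair, which gave 6 young and 6 adult pairs. A control of 1 IP and 1 supernatant came from young mice with the floxed L10a-GFP and no Cre, and no adult control of that kind was analysed here. The control is labelled neither DHT nor vehicle, so Cre is not its only labelled difference from the young DHT libraries. The labels call the replicates biological without saying whether each is 1 animal or a pool, so the p-values reflect only the spread among these libraries, which may be technical.

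GnRH neurons are few, lie scattered through the preoptic area, and send long axons to the median eminence, where they release the peptide that drives the pituitary. Their activity matures through puberty, and prenatal androgen exposure is used in mice as a model of the reproductive features of polycystic ovary syndrome. Tagged-ribosome capture recovers RNA in translation in the tagged cells, together with any RNA that enters the precipitate without a tag. In such samples, fewer tagged cells and less RNA per cell cannot be told apart.

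The 24 libraries held 28136000 to 47054029 counts each. Adult IP libraries stood apart from the rest. The median correlation of log2 values between libraries of a group, across genes, was 0.904 in adult IP, 0.943 in young IP and 0.989 in either supernatant. Between 3.89% and 10.7% of tested genes had no read in an adult IP library, against 2.17% to 6.47% in young IP and at most 0.525% in the supernatant. Adult IP replicate 2 had the lowest Gnrh1 level of the IP libraries, 664 CPM (counts scaled to a common library total). The young libraries numbered 4 to 6 carry later sample numbers than the other young libraries and all adults.

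Between young and adult DHT mice, 94 genes changed in IP relative to supernatant (0.587% of 16007, edgeR quasi-likelihood test, adjusted p below 0.05). Of these, 74 were lower (0.462%) and 20 were higher (0.125%). The falls had a median interaction of -1.0 on the log2 scale and ran from -6.92 to -0.53. The rises had a median of 0.85 and ran from 0.46 to 2.13. Over all genes tested the median was -0.07. The falls included the neurofilament transcripts Nefl, Nefm and Nefh, and the rises included Kalrn, Atg7 and the polyubiquitin gene Ubb. The count of 94 became 36 when young pairs 4 to 6 were left out and 10 when young pairs 1 to 3 were left out. It was 45 without adult pair 4, and 50, 46, 52 and 46 without young pair 1, 2, 3 or 6.

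Neurofilaments are the intermediate filaments that fill large axons, and Nefl, Nefm and Nefh encode their light, medium and heavy subunits. Nefl, on chromosome 14 from 68083863 to 68089095 (mm10, plus strand), had the smallest p of all genes. In young IP it was at 9936 CPM in the lowest library, 15205 CPM at the median and 20800 CPM in the highest. In adult IP the same 3 values were 799, 954 and 1120 CPM. The 2 age groups did not come near each other. In the supernatant Nefl ran from 694 to 760 CPM in young and from 674 to 785 CPM in adult mice, and these ranges overlapped. Young IP therefore exceeded its own supernatant by 3.77 to 4.77 on the log2(CPM + 0.5) scale in the 6 pairs, and adult IP by 0.23 to 0.60. The interaction was -3.92 ± 0.14 (SE, 6 against 6 pairs, edgeR adjusted p = 2.62e-10). The exact permutation test over pairs gave p = 0.00216, two-sided, which is the smallest value that the splits of 6 and 6 pairs can give. Any gene whose adult and young pairs do not overlap gives this value, as 68 of the 74 falls did. The naming rule required no overlap, so this p adds no separate support.

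**Figure D1:**
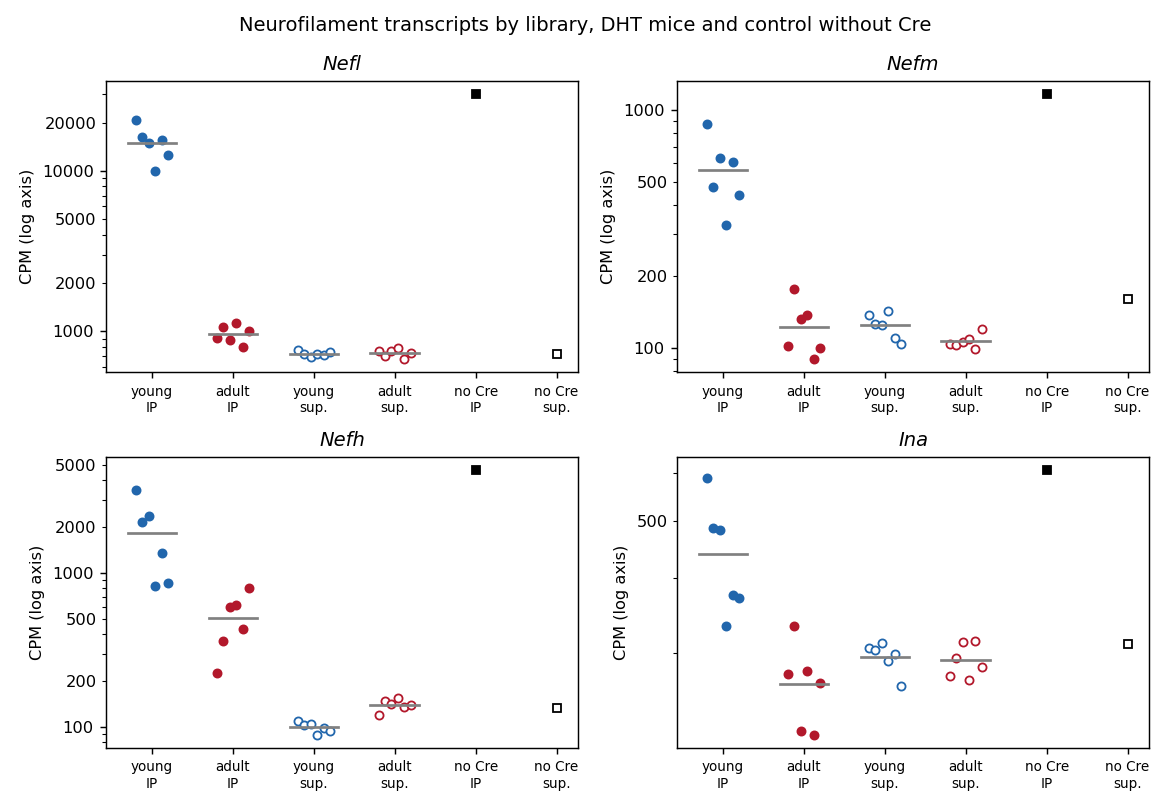
Nefl, Nefm, Nefh and Ina in each library, in CPM on a log axis. Filled circles are IP and open circles supernatant libraries of DHT mice (6 per group), grey bars are group means, and squares are the single IP and supernatant of young mice without Cre. Nefl falls from 9936 to 20800 CPM in young IP to 799 to 1120 CPM in adult IP while the supernatants stay level, and the control IP without Cre lies above every IP library of DHT mice for each of the 4 genes.

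The heavy subunit gene Nefh, on chromosome 11, ran from 828 to 3446 CPM in young IP (median 1758) and from 223 to 803 CPM in adult IP (median 520). Its groups did not overlap in the IP. The supernatant ran from 89.5 to 110 CPM in young and from 120 to 154 CPM in adult mice, so the tissue moved the other way. The interaction of Nefh was -2.23 ± 0.31 (SE, edgeR adjusted p = 0.00206). Young IP held 85240 to 128814 reads of Nefh in pairs 1 to 3 and 28786 to 61689 in pairs 4 to 6. Nefm ran from 329 to 873 CPM in young IP and from 90.2 to 177 CPM in adult IP, with an interaction of -1.92 ± 0.23 (SE, edgeR adjusted p = 0.000772). The calls of Nefh and Nefm were lost without young pairs 1 to 3 (edgeR adjusted p = 0.0806 and 0.058). GENCODE M21 places Nefl inside the span of Nefm, on the other strand, and the library kit does not mark strand, so reads of Nefl may have been counted for Nefm. Ina, which encodes the related filament protein alpha-internexin, stood at -0.66 ± 0.15 and did not pass the threshold (edgeR adjusted p = 0.0576), although its 6 adult and 6 young pair differences did not overlap.

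Of the 9 neurofilament and other intermediate filament genes tested, 3 were lower and 0 higher, against 0.462% and 0.125% of all genes tested. The median of the 9 was -1.07. All 9 had a negative sign, as did 8909 of the 16007 genes tested. The other members were Gfap (-0.58), Vim (-0.71), Nes (-0.70), Prph (-1.57) and Sync (-1.07), none of which passed. Gfap, the astrocyte filament gene, also fell between the ages in the supernatant, by 0.77 on the log2 scale (edgeR adjusted p = 0.0219).

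The control without Cre bears on these values directly. Its IP held 30000 CPM of Nefl against 723.5 CPM in its supernatant, 4676 against 133.6 CPM of Nefh and 1163 against 161.2 CPM of Nefm. In a precipitate from mice with no Cre, all 3 subunits thus stood above the highest young IP library of DHT mice. Gnrh1 was at 61.62 CPM in the same control IP, against 2816 to 3942 CPM in young IP of DHT mice. With no adult control, the age difference of this background was not measured, and its part in the interaction was not tested.

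The other large falls were in genes of varied function. Kifc3, which encodes a minus-end-directed kinesin, ran from 225 to 682 CPM in young IP and from 49.4 to 93.8 CPM in adult IP. Supernatant levels of Kifc3 stayed between 65.9 and 83.8 CPM at both ages. The interaction was -2.88 ± 0.23 (SE, edgeR adjusted p = 1.81e-05). Adult IP was thus no higher than the tissue around it, at -0.16 on the log2 scale, while young IP was 2.73 above.

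Pom121, a nuclear pore membrane protein gene, followed the same course. It ran from 91.1 to 244 CPM in young IP and from 16.4 to 48.7 CPM in adult IP, at an interaction of -2.77 ± 0.27 (SE, edgeR adjusted p = 0.000102). Cobl, an actin nucleator gene, stood at -2.35 ± 0.32, and its supernatant rose between the ages by 0.74 (edgeR adjusted p = 0.00363). Mdm1, a centriole and microtubule-binding protein gene, stood at -2.66 ± 0.38, and Fam184a at -2.26 ± 0.35. The calls of Cobl, Mdm1 and Fam184a were lost without young pairs 1 to 3, and those of Mdm1 and Fam184a also without young pairs 4 to 6. In adults, as for Kifc3, the IP lay close to its supernatant, at 0.0058 for Pom121, 0.25 for Mdm1 and -0.02 for Fam184a on the log2 scale.

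A further group stayed above the supernatant in adults. Tcf20, a transcriptional coregulator gene, was 5.01 above its supernatant in young IP and 2.41 above it in adult IP, an interaction of -2.60 ± 0.40 (SE, edgeR adjusted p = 0.00537). Yeats2, which encodes a subunit of a histone acetyltransferase complex, was 6.33 and 3.98 above, at -2.35 ± 0.48 (edgeR adjusted p = 0.0388). Its adult IP ran from 35.7 to 442 CPM, a range wide at its lower end, and its call was lost in 12 of 23 alternatives. Ubr4, an E3 ubiquitin ligase gene of the N-degron pathway, was 3.43 and 1.24 above, at -2.20 ± 0.30 (edgeR adjusted p = 0.00194). The calls of Tcf20 and Ubr4 were lost without young pairs 1 to 3 (edgeR adjusted p = 0.202 and 0.0937).

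Emilin2 and Cldn14 had the largest fitted falls of the 12 named for size, and both were near the floor in most adult IP libraries. Emilin2, an extracellular matrix glycoprotein gene, held 179 to 691 reads in each young IP library. In adult IP, 2 libraries held 49 and 200 reads and the other 4 held at most 3 each. The supernatant of Emilin2 rose, from 225 reads in the 6 young libraries to 490 in the 6 adult ones, which adds to its fall. Cldn14, a tight-junction claudin gene, held 166 to 357 reads in each young IP library and at most 3 in any adult IP library. Its supernatant also fell, from 1184 reads in the 6 young libraries to 106 in the 6 adult ones, so both fractions were lower in adults. The fitted values, -6.82 ± 1.41 for Emilin2 and -4.57 ± 0.95 for Cldn14 (SE, edgeR adjusted p = 0.0389 for both), depend on how zeros are handled. Their calls were lost in 14 and 12 of 23 alternatives.

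**Figure D2:**
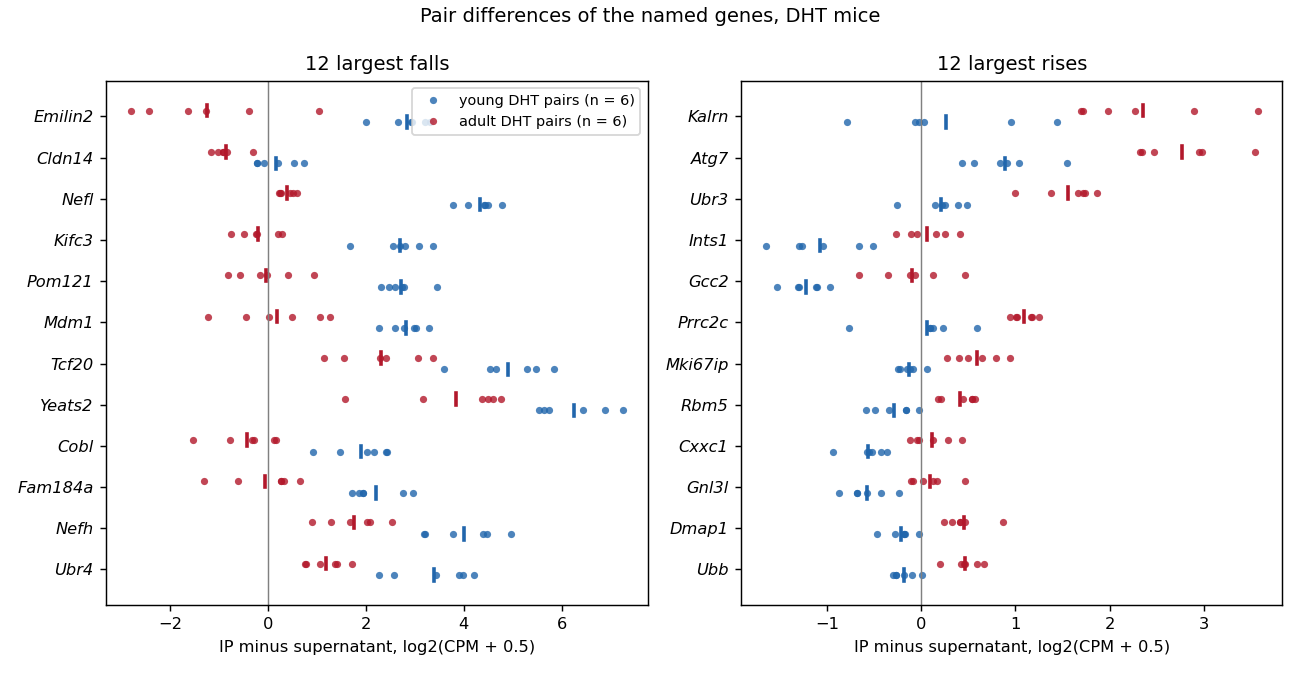
IP minus supernatant of each pair on the log2(CPM + 0.5) scale, for the 12 largest falls (left) and the 12 largest rises (right) named by rule. Points are pairs (6 adult in red, 6 young in blue) and bars are means. Adult and young pairs do not overlap in any gene drawn, which the naming rule required, and the adult pairs of Kifc3, Pom121, Mdm1 and Fam184a lie around 0.

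Scube3, which encodes a secreted EGF-domain protein, was nearly absent from adult IP while its supernatant held level. Its 6 adult IP libraries held 9 reads in all, at most 3 in any 1, against 873 reads in the 6 young IP libraries. The supernatant held 797 reads in adult and 771 in young mice. The young pairs ranged widely, from 10 to 339 reads in the IP. The fitted interaction of Scube3 was -5.94 ± 1.19 (SE, edgeR adjusted p = 0.0359), and the call was lost in 11 of 23 alternatives. In 9 of these a single pair was left out (adult pair 1, 2, 4 or 6, or young pair 2, 3, 4, 5 or 6), with values from -6.25 to -5.57. In vehicle mice Scube3 stood at 0.41 and did not pass (edgeR adjusted p = 0.908), with 2.23 to 13.2 CPM in adult IP. The difference between DHT and vehicle, -6.37, did not pass the test either (edgeR adjusted p = 0.886).

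Smaller falls were seen in well-expressed genes. Fth1 and Ftl1, which encode the heavy and light chains of the iron store ferritin, were singled out here after their values were seen. Fth1 ran from 2752 to 5218 CPM in young IP and from 986 to 2476 CPM in adult IP, at -1.14 ± 0.14 (SE, edgeR adjusted p = 0.00103), and Ftl1 stood at -0.80 ± 0.17 (edgeR adjusted p = 0.0423). In the control without Cre both stood higher in IP than in supernatant, at log2 ratios of 0.96 and 1.29. Pcsk1n, which encodes the prohormone convertase inhibitor proSAAS, was the 1 member called among 16 granin and prohormone processing genes, at -0.99 ± 0.18 (edgeR adjusted p = 0.0186). Over all genes tested, 0.587% were called. The call of Pcsk1n was lost in 6 of 23 alternatives: without the replicate block (-0.96), without young pairs 1 to 3 (-1.23) or 4 to 6 (-0.71), and without adult pair 4 (-0.95) or young pair 5 (-0.96) or 6 (-0.93).

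The rises were fewer and smaller. Kalrn, which encodes a guanine nucleotide exchange factor of dendritic spines, ran from 20.4 to 63.8 CPM in young IP (median 26.2) and from 81.1 to 282 CPM in adult IP (median 123). The supernatant of Kalrn stayed between 21.4 and 35.7 CPM at both ages. The interaction of Kalrn was 2.13 ± 0.37 (SE, edgeR adjusted p = 0.0139), and the call was lost without young pair 2 (2.08, edgeR adjusted p = 0.0501) and without young pairs 4 to 6 (1.65). Atg7, which encodes an activating enzyme needed to form autophagosomes, ran from 42.7 to 114 CPM in young IP and from 204 to 485 CPM in adult IP, with no overlap. Its supernatant ran from 25 to 44.2 CPM over both ages. The interaction of Atg7 was 1.91 ± 0.21 (SE, edgeR adjusted p = 0.00046), and its call held in all 23 alternatives. Without Cre, too, both genes stood higher in IP than in supernatant, at log2 ratios of 1.5 for Kalrn and 1.29 for Atg7.

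Ubr3, another E3 ubiquitin ligase gene of the family that includes Ubr4, moved the opposite way to Ubr4. It ran from 25.2 to 58.3 CPM in young IP and from 60.4 to 129 CPM in adult IP, at an interaction of 1.39 ± 0.18 (SE, edgeR adjusted p = 0.00112). Its ratio in the control pair was -0.02, so the control IP was not above its supernatant. Ubb, a polyubiquitin gene, ran from 1612 to 2799 CPM in young IP and from 3116 to 3919 CPM in adult IP, at 0.68 ± 0.11 (edgeR adjusted p = 0.00702). Its call was lost without adult pair 4 (0.63), without the replicate block (0.66) and without young pairs 1 to 3 (0.59). The predicted gene Gm1821 was called with Ubb at 0.70; near-identical ubiquitin sequences can share reads, so these values are uncertain.

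Ints1 and Gcc2 rose from levels below the supernatant in young IP. In the control without Cre, too, both held fewer reads in IP than in supernatant. The counts were 654 against 1544 for Ints1 and 1191 against 2313 for Gcc2. Ints1, an Integrator complex subunit gene, was at -1.07 against its supernatant in young and 0.12 in adult mice, an interaction of 1.19 ± 0.22 (SE, edgeR adjusted p = 0.0188), with the call lost in 5 of 23 alternatives, among them those without young pair 1 (1.15) or 6 (1.08). Gcc2, which encodes a golgin of the trans-Golgi, went from -1.21 to -0.05, at 1.16 ± 0.19 (edgeR adjusted p = 0.00911). Prrc2c was close to its supernatant in young IP, at 0.09, and stood 1.16 above it in adult IP; the interaction of Prrc2c was 1.07 ± 0.20. Its adult IP values were tight, from 54.9 to 64.0 CPM. The call of Prrc2c was lost in 8 of 23 alternatives, 5 of them with 1 pair left out (adult pair 4 or 6, or young pair 2, 3 or 6), with values from 1.05 to 1.09 in those 5. The splicing regulator gene Rbm5 stood at 0.73 ± 0.12. Values close to it were found for Mki67ip (0.75), Gnl3l (0.70), Dmap1 (0.70) and Cxxc1 (0.70), and the calls of these 4 were lost in 9 to 15 of 23 alternatives. Ndn, the imprinted gene of necdin, was the 1 member called of 31 imprinted and puberty-timing genes (0.587% of all genes tested were called). It ran from 1607 to 1951 CPM in young IP and from 2303 to 2969 CPM in adult IP, at 0.56 ± 0.11 (edgeR adjusted p = 0.0293). The call of Ndn was lost without young pairs 1 to 3 (0.45, edgeR adjusted p = 0.354). It was also lost on leaving out 1 of 6 single pairs, adult pair 1 or 4 or young pair 1, 2, 3 or 6, with values from 0.53 to 0.57.

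The direction of the interaction can come from either fraction, so stage differences within each fraction are given beside it; they use the same libraries and add no independent evidence. The 74 falls had a median adult minus young difference of -1.07 in IP and -0.03 in supernatant, and in 70 of 73 genes with both values the IP difference was the larger. In young mice, 66 of the 74 stood higher in IP than in supernatant, and in adults 16 did. The 20 rises had a median stage difference of 1.02 in IP and 0.04 in supernatant, and the IP difference was the larger in all 20. Only 5 of them stood above the supernatant in young mice, and 18 did in adults.

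In all, the pair differences of the 2 ages did not overlap in 207 lower genes (1.29%) and 65 higher genes (0.406%). Of the genes called, 68 of 74 falls and 16 of 20 rises were among them. Many low-level genes leaned to the negative side without being called. An interaction of -2 or below was fitted for 1183 genes (7.39%), of which 1066 were under 5 CPM in every group, against 194 genes (1.21%) at 2 or above. The share of genes with no read was also higher in adult IP, as given above, and its part in this lean was not tested.

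The falls and the rises were then read against the control without Cre. In that pair, 1494 of the 16007 genes (9.33%) were at least 2-fold higher in IP than in supernatant. Of the 74 falls, 29 (39.2%) were, and of the 20 rises, 2 (10%) were. Among the 12 largest falls 11 were, Cldn14 being the exception, with log2 ratios from 0.50 to 6.30. Genes were also grouped by their control ratio. Where the ratio was 2 or more on the log2 scale, 18 of 174 genes (10.3%) were lower, with a median interaction of -0.42. Where it was between 0 and 1, 36 of 6603 genes (0.545%) were lower, with a median of -0.13. Where it was under -1, 1 of 1682 (0.0595%) was lower, with a median of -0.0037. Most rises had a control ratio below 0. They were 2 of 1682 genes (0.119%) under -1, 14 of 6228 (0.225%) between -1 and 0, and 2 of 6603 (0.0303%) between 0 and 1. The control has 1 library per fraction, so these groupings have no replicate check and no test.

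**Figure D3:**
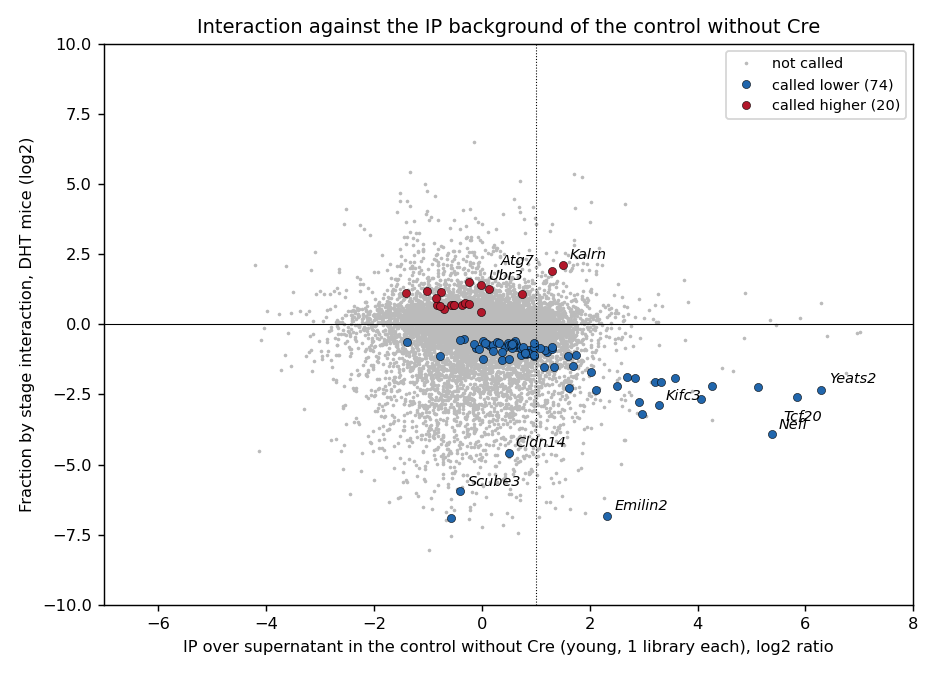
Interaction in DHT mice against the IP to supernatant log2 ratio of the control without Cre, for all 16007 genes tested. Blue points are the 74 genes called lower, red points the 20 called higher, grey points the rest, and the dotted line marks a 2-fold ratio. The falls with the highest control ratios, such as Nefl, Tcf20 and Yeats2, lie far to the right, while the rises lie mostly at or left of 0.

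A fit without the 1494 genes raised at least 2-fold in the control precipitate left 41 calls, 29 lower and 12 higher. In the full fit, 45 falls had a control ratio under 2-fold, and for 36 of them the log2 ratio was between 0 and 1. The median interaction of the 45 was -0.80, and 13 of the 45 fell at least 2-fold. Nrsn1, a neuronal membrane protein gene chosen after its values were seen, was among the 45. It stood at -1.22 ± 0.14 (SE, edgeR adjusted p = 0.000558) with a control log2 ratio of 0.51. In CPM, the control IP of Nrsn1 lay above every young IP library of DHT mice, as for Nefl.

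The genes that define the neuron did not pass. Gnrh1, on chromosome 14 from 67745181 to 67749439 (mm10), was at 2816, 3195 and 3942 CPM in the lowest, median and highest young IP library. In adult IP these were 664, 3940 and 13180 CPM. The adult libraries spread on both sides of the young ones. In supernatant Gnrh1 ran from 20.5 to 40.2 CPM in young and from 34.5 to 50.4 CPM in adult mice. Its enrichment was 6.86 in young and 6.60 in adult pairs, an interaction of -0.26 ± 0.47 (SE, 95% interval -1.26 to 0.74, edgeR adjusted p = 0.882). The exact permutation test over 12 pairs gave p = 0.649. The interval includes a 2-fold fall, so a fall of that size was not excluded.

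**Figure D4:**
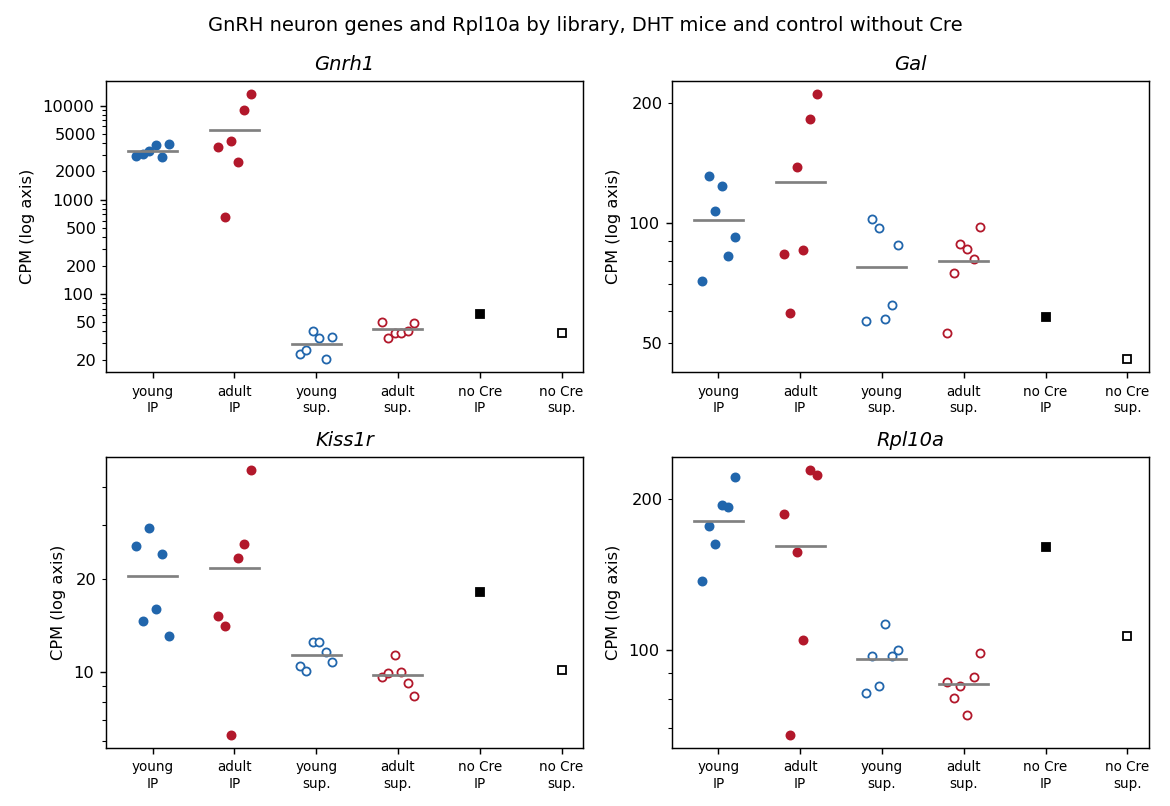
Gnrh1, Gal, Kiss1r and Rpl10a in each library, in CPM on a log axis, with symbols for fraction, age and control as filled (IP) or open (supernatant) circles and squares (no Cre), and grey bars for means. Adult IP libraries of Gnrh1 run from 664 to 13180 CPM around the young IP libraries at 2816 to 3942 CPM.

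Kiss1r, the kisspeptin receptor gene, stood at 0.16 ± 0.45 (95% interval -0.80 to 1.12), and Gal, the galanin gene, at 0.17 ± 0.25 (-0.37 to 0.71). Rpl10a, the gene of the tagged protein, stood at -0.08 ± 0.22 (-0.55 to 0.40), though reads of the transgene were not separated from it. Kiss1, the kisspeptin gene, stood at -0.68 ± 0.35 and rose in the supernatant between the ages by 1.90 (edgeR adjusted p = 0.0150). The steroid receptor genes Esr1 and Pgr stood at 0.20 ± 0.45 and -0.23 ± 0.35. Esr2 was at 7.46 CPM in adult IP replicate 1 and at 0.10 to 0.53 CPM in the other 5, against 0.15 to 3.54 CPM in young IP. The interaction of Esr2 was -2.66 ± 1.44 (edgeR adjusted p = 0.487), and -3.34 without adult pair 1. Xist, the X-inactivation RNA, was at a mean of 0.68 CPM in adult and 4.11 CPM in young IP, at -2.54 ± 1.07 (edgeR adjusted p = 0.337). None of these 8 genes passed the threshold.

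Of the 34 gene lists with tested members, 30 held no called gene. Over all genes tested 0.587% were called, and at that share most lists of this size would hold none. The absence of calls is therefore no result about these lists. The 15 GnRH neuron genes had a median of -0.07, the value of all genes, and the 30 neuropeptide precursor genes one of -0.09. The 78 cytosolic ribosomal protein genes had a median of 0.02 and the 48 oxidative phosphorylation genes 0.08. Genes of the GABA system leaned positive, 20 of 25 with a median of 0.23, against 7098 positive of all 16007 genes tested. Their median was 0.14 in vehicle mice, and their median log2 ratio in the control without Cre was -0.38. Gphn, the gene of the inhibitory synapse scaffold gephyrin, stood at 0.63 ± 0.18 (edgeR adjusted p = 0.146). In the IP the same 25 genes had a median stage difference of 0.62 and in the supernatant 0.21. Potassium channel genes had a median of 0.19 over 38 genes, glutamate receptor and transport genes 0.18 over 29, and synaptic vesicle release genes 0.19 over 27, with none called.

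Of 8 lists of markers of glial, vascular, meningeal and blood cells, 7 had negative medians, from -0.85 to -0.02, and the blood list had a positive one. Summed levels of 2 of these lists separated the ages in the IP. Ependymal, tanycyte and choroid plexus genes summed to 1147 to 1584 CPM in young IP and 677.5 to 1019 CPM in adult IP, with a median interaction of -0.43 over 14 genes. Their supernatant sums overlapped, at 1241 to 1731 CPM in young and 1106 to 1424 CPM in adult mice. Most of the IP sum came from 1 gene of this list, Nnat. It held 36781 to 52502 reads in young IP libraries and 16500 to 39460 in adult IP libraries. Nnat is also on the immature neuron and imprinted gene lists, so the sum does not stand for these cells alone. Oligodendrocyte precursor genes summed to 749.5 to 1034 CPM in young IP and 425.3 to 623.4 CPM in adult IP, and their supernatants separated as well, at 1040 to 1292 and 643.5 to 864.3 CPM. Their median interaction was -0.09 over 17 genes. The 5 blood genes tested had a median of 0.60, at sums of 17.1 to 48.4 CPM in young IP and 1.23 to 62.1 CPM in adult IP. The 23 myelin genes had a median of -0.30, and their summed level ran from 4442 to 7014 CPM in young IP and from 2047 to 5704 CPM in adult IP, with 5578 to 8407 and 3160 to 6449 CPM in the supernatants. The 18 astrocyte genes had a median of -0.02, with sums of 1325 to 1667 CPM in young IP and 887 to 2113 CPM in adult IP. Microglial genes had a median of -0.44 over 17 genes, and endothelial and mural genes one of -0.85 over 20. The summed endothelial and mural level was low, at 62.4 to 234 CPM in young IP and 52.9 to 372 CPM in adult IP. Leptomeningeal fibroblast genes had a median of -0.68 over 12 genes, and their sum ran from 82.4 to 1931 CPM in adult IP (median 148.4). In adult supernatant the sum ran from 158.6 to 2340 CPM. Ptgds, of this list, held 62417 reads in IP and 81003 in supernatant of adult pair 4. In the other adult pairs it held at most 10829 and 10502. None of the genes of these 8 lists was called, where 0.587% of all genes tested were. Folr1, a choroid plexus marker, was at 0 in all adult IP libraries and S100a8, a neutrophil gene, in all IP libraries, while every other gene listed had reads in both IP groups. The part of these cells in the falls was not tested.

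The same interaction in vehicle mice of the same genotype, from 6 young and 5 adult pairs, shares no library with that in DHT mice. It called 75 of 16201 genes (0.463%), 25 higher and 50 lower. Of the falls in DHT mice, 27 were also falls in vehicle mice, which is 36.5% of the DHT and 54% of the vehicle list. Among them were Nefl, Nefm, Kifc3, Pom121, Mdm1, Tcf20, Yeats2, Cobl, Fam184a, Ubr4 and Fth1. Of the 12 largest falls, 9 were called in vehicle mice, while Nefh, Emilin2 and Cldn14 were not. All 12 had the same sign. The neurofilament and intermediate filament list held 4 lower genes in vehicle mice, with a median of -1.68. Of the rises, 6 were shared, which is 30% and 24%: Atg7, Kalrn, Ubr3, Ubb, Ndn and the predicted Gm1821. No gene was called in opposite directions. Values were close for Nefl, Kifc3 and Atg7, which are examples picked from the shared genes. Nefl stood at -3.92 in DHT and -4.01 in vehicle mice, Kifc3 at -2.88 and -3.00, and Atg7 at 1.91 and 2.13. Across the 15924 genes tested in both, Pearson's r of the interactions was 0.30, as a description over genes that are not independent and that share depth and low-count noise.

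**Figure D5:**
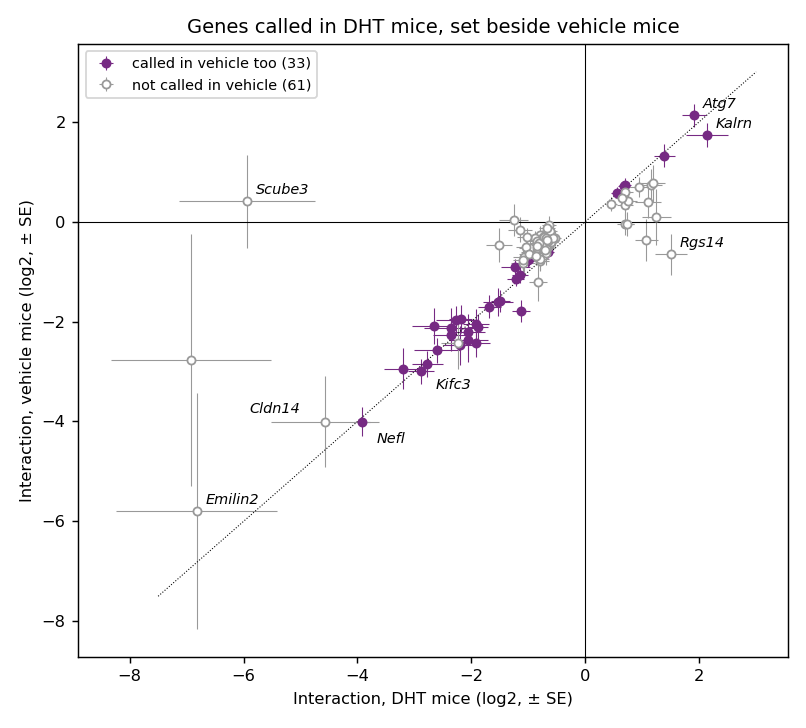
Interaction in vehicle mice against that in DHT mice for the 94 genes called in DHT mice, both in log2 with SE bars. Filled points are the 33 genes called in the same direction in vehicle mice, open points the other 61, and the dotted line marks equal values. Nefl, Kifc3 and Atg7 lie near the line, most points have a smaller value in size in vehicle than in DHT mice, and Scube3 and Rgs14 lie far off it.

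Of the 74 falls, 72 had the same sign in vehicle mice, and of the 20 rises 16 did. The falls had a median interaction of -0.64 in vehicle mice against -1.0 in DHT mice, and the rises 0.53 against 0.85, for genes chosen by their DHT values. The test of the difference between the interactions, DHT minus vehicle, called 0 of 16660 genes (0%) with edgeR. There were 753 genes with an unadjusted p below 0.05, DESeq2 called 58 and voom called 0. For Nefl the difference was 0.05 and for Atg7 -0.26. Rgs14, a regulator of G-protein signaling gene picked out here after its values were seen, stood at 1.5 in DHT and -0.65 in vehicle mice (difference 2.12, edgeR adjusted p = 0.886). A difference that misses the threshold does not show that the treatments act alike, and no gene here can be called particular to DHT mice.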

How the data were processed

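Expected counts per gene were deposited for 23284 genes in 48 libraries, and 98.49% of the values were whole. They were rounded to whole numbers for the tests. Tools named in the submitters' processing notes are TopHat2 2.0.13 with Bowtie2 2.2.1, HTSeq 0.6.1, Cuffdiff 2.1.1, DESeq2 1.14.1 and FastQC 0.11.3, and the build is mm10. The tool and annotation behind the counts are not given in the sources. Libraries were made with SMARTer v4 Ultra Low, per the labels' protocols, a kit that does not mark strand.

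From the counts, edgeR 4.0.16 in R 4.3.3 (TMM, filterByExpr with minimum count 10 and minimum total 15, robust quasi-likelihood F test, Benjamini-Hochberg over all genes, threshold 0.05) was fitted to the 24 DHT libraries with 12 pairs as blocks. Standard errors come from the F statistic. The vehicle fit used its 22 libraries and the difference between treatments all 46. Stage differences within a fraction were fitted without pairs. DESeq2 1.42.0 and limma 3.58.1 (voom) were alternatives, with other scalings, filters and libraries left out. Pair differences used log2(CPM + 0.5).

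The pairs follow from the definition of the comparison: a depleted supernatant is what its own IP left, though the labels do not say that the numbers tie them.

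Named genes were the 12 largest rises and 12 largest falls called, with at least 5 CPM in the highest group and no overlap between ages, with a fixed set (Gnrh1, Kiss1r, Gal, Kiss1, Esr1, Esr2, Pgr, Rpl10a, Scube3, Xist) and members of the 35 gene lists with the smallest p. Predicted genes were counted, and named once. A few genes under this rule are not reported. The comparison and lists were chosen with earlier results of these data known.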

Additional observations from a re-analysis of the deposited data

Results flagged for a closer look

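In 80 groups of 6 pairs or libraries (named genes at each age, and Gnrh1, Nefl and undetected genes by group), 7 held 1 value far from the other 5, where chance gives about 1 in 20. The log2 difference between IP and supernatant was the value in each case. Esr2 stood at 2.49 in adult pair 1, against -2.23 to -0.98 in the other 5. Gnrh1 stood at 6.34 in young pair 3, against 6.80 to 7.07. Gal stood at 1.10 in young pair 4, against 0.07 to 0.40. Prrc2c stood at -0.77 in young pair 4, against 0.09 to 0.59. Cxxc1 stood at -0.94 in young pair 2, against -0.58 to -0.36. Adult pair 3 was the highest for Cldn14, at -0.31 against -1.16 to -0.85, and for Dmap1, at 0.87 against 0.24 to 0.46.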

How the results depend on the processing

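The 94 calls in DHT mice (20 higher, 74 lower) became 117 (17 and 100) with no replicate block, that is, without pairing, and 69 of the 94 were kept. Deviations of IP and supernatant with the same number correlated at -0.07 to 0.41, and 10 of 12 were closest to their own number, a hint from the data and not the design. Young pairs 4 and 5, both with later sample numbers, were not. They correlated at 0.018 and -0.073 with their own number and at up to 0.161 and 0.0805 with another. The calls became 160 (35 and 125) in a fit of all 46 libraries, 665 (214 and 451) with DESeq2 and 208 (78 and 130) with voom, where 62.5% of calls were lower against 78.7%. Upper quartile scaling gave 122 falls. Leaving out young replicates 4 to 6 gave 36 (12 and 24), and leaving out 1 to 3 gave 10 (3 and 7). With the genes raised 2-fold or more in the control IP removed there were 41 (12 and 29). Leaving out 1 pair gave 45 to 128 calls, 6 to 42 higher and 38 to 86 lower, with 13 rises without adult pair 1 and 42 without adult pair 5.

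Vehicle mice gave 75 calls (25 and 50), 202 (40 and 162) without the replicate block, 387 (266 and 121) with voom, 833 (290 and 543) with DESeq2 and 44 rises with RLE size factors. Without 1 pair they gave 23 to 114, 4 to 60 higher and 19 to 54 lower. The difference between treatments gave 0, 4 without the replicate block (3 and 1) and 58 with DESeq2 (42 and 16). Causes were not tested.

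Signs turned in genes that were not called. Without the replicate block, Gnrh1 was 0.24 and Rpl10a 0.012, and with voom they were 0.29 and 0.012. Without young replicates 4 to 6, Rpl10a was 0.063, and without 1 to 3, Esr1 was -0.036, Gal -0.0065 and Pgr 0.31. Without 1 pair, Esr1 ran from -0.030 to 0.38, Gnrh1 from -0.56 to 0.17, Kiss1r from -0.12 to 0.50 and Rpl10a from -0.19 to 0.14. Nefl, Kifc3, Pom121 and Atg7 were called in all 23 alternatives. Nefh, Nefm, Cobl, Tcf20, Ubr4, Fth1 and Ubr3 lost their calls only without young replicates 1 to 3. Mdm1, Fam184a, Gcc2 and Rbm5 lost theirs only without young replicates 1 to 3 and without young replicates 4 to 6. Gnrh1 by pair differences stood at -0.31, and at -0.32 and -0.25 with pseudocounts of 0.1 and 5 CPM. Genes near 0 in adult IP, such as Emilin2, Cldn14 and Scube3, rest on few reads in most adult IP libraries. Library totals overlapped, at 28672556 to 47054029 counts in adult IP and 34761129 to 45474341 in young IP. The cause of the low reads was not tested.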

Other observations

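Among the genes called in DHT mice, the longest annotated transcript (GENCODE M21) was found for 63 of 74 falls, 18 of 20 rises and 14304 of 16007 genes tested. Median GC content was 53.6% in the falls, 47.1% in the rises and 50.3% in all genes tested. Median length was 2665 bases in the falls, 3914 in the rises and 3126 in all. The relation of these values to the interaction was not tested.

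Other falls, chosen here after their values were seen, were Letm1, an inner mitochondrial membrane protein gene (-2.19), Arid1b, a SWI/SNF subunit gene (-2.05), Son, a splicing cofactor gene (-1.91), and Plekha6 (-1.88). In the control without Cre the log2 ratios of IP to supernatant were 3.21 for Arid1b, 3.59 for Son, 2.50 for Letm1 and 2.68 for Plekha6. In vehicle mice these 4 genes stood at -2.38, -2.43, -1.95 and -2.10.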
